A study of Mus musculus with 6 samples.

Results

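The CXC chemokines described here are 7 genes, chosen by name among the 55487 genes counted in each library. Cxcl1, Cxcl2 and Cxcl3 formed the neutrophil-attracting class, Cxcl12, Cxcl13 and Cxcl16 the lymphocyte-attracting class, and Cxcl14 stood in neither. The RNA came from Cd11b-enriched non-myocyte cells of the hearts of C57BL/6 mice, a preparation rich in macrophages and other myeloid cells that also held vessel and connective tissue RNA. There were 3 KO pools, in which Egfr, the gene of the epidermal growth factor receptor, was deleted in myeloid cells (Egfr mKO). They were compared with 3 WT pools with floxed Egfr and no deletion (Egfr f/f). KO pools were made from 5, 5 and 6 hearts, and WT pools from 5 each. The sources used here name neither the Cre driver nor the age of the mice. The question was how loss of the receptor in myeloid cells changes expression in this preparation, read here for chemokines that call in different leukocytes. Each library is a pool, so the tests compare pools and carry no measure of how single mice differ.

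Chemokines are small secreted proteins that bind G protein-coupled receptors and steer leukocytes along gradients. In the CXC family a single residue separates the first pair of conserved cysteines, and members with the sequence glutamate-leucine-arginine (ELR) just before that pair bind Cxcr2 and recruit neutrophils. Cxcl1, Cxcl2 and Cxcl3 belong to this ELR class and are made within hours of an inflammatory signal by macrophages, endothelial cells and fibroblasts. Members without ELR mostly act on other leukocytes: Cxcl12 through Cxcr4, Cxcl13 through the B cell receptor Cxcr5, and Cxcl16, which is anchored in the membrane and can be shed, through Cxcr6 on T and NKT cells. Cxcl14 is a chemokine of stromal and epithelial tissues.

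The class boundary can be read in the coding sequence. The stretches below, from GENCODE M21 transcripts, are shown because they hold the feature that divides the classes. Capitals mark the 3 codons before the cysteine pair, the first cysteine, the residue between and the second cysteine.
Cxcl1: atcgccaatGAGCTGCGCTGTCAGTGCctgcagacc
Cxcl2: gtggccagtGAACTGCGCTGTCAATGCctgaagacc
Cxcl3: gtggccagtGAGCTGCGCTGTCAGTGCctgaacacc
Cxcl12: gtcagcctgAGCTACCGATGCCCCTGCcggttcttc
Cxcl13: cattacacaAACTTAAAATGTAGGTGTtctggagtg
Cxcl16: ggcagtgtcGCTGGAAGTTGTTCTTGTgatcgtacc
Cxcl14: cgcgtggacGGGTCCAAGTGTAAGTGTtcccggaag
The 3 neutrophil-attracting members had ELR codons there, and the other 4 members did not. The coding sequences of Cxcl2 and Cxcl3 were 89.7% identical over 300 aligned bases, those of Cxcl1 and Cxcl2 78.8% and those of Cxcl1 and Cxcl3 75.7% over 288 bases each. Of all stretches of 50 bases in the annotated transcripts, 5.56% of those of Cxcl2 and 3.83% of those of Cxcl3 occurred in the other gene too. Reads that aligned to several places were not assigned to genes, so counts of this pair can miss such reads.

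Cxcl1, Cxcl2 and Cxcl3 also lie in a cluster on chromosome 5 and share a promoter element. The 120 bases before each start site (RefSeq, GRCm38.p6, plus strand) are shown because the 3 neighbours hold a common element and yet had different KO and WT values. Capitals mark GGGAATTTCCC, the longest run that the 250 bases upstream of all 3 genes share, which contains a form of the binding motif of NF-kB, a transcription factor of inflammatory genes.
Cxcl1, chr5:90891125-90891244: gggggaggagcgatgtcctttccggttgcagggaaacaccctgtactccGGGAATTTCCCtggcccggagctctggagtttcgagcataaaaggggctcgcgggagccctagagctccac
Cxcl2, chr5:90903779-90903898: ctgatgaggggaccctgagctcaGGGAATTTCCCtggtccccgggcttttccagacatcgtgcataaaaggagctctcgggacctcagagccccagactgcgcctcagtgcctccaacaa
Cxcl3, chr5:90785981-90786100: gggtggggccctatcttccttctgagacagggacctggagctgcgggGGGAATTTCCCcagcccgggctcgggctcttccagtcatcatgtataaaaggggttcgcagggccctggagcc
The element began 71 bases before the start of Cxcl1, 97 before that of Cxcl2 and 73 before that of Cxcl3. Searched on both strands over 250 bases upstream, GGGAATTTCCC was present for 14 of 27025 genes with a promoter in that table (0.0518%), a share that includes these 3. It was chosen from these windows. Promoters were at hand for 6 of the 7 members, and those of Cxcl12, Cxcl13 and Cxcl14 did not hold these letters in that window.

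The libraries held 25199667 to 27485129 gene reads in KO and 17780707 to 27104205 in WT. Egfr stood at 18.5, 15.95 and 17.4 CPM (gene reads scaled to library size) in the KO pools, against 54.7, 43.0 and 44.7 CPM in the WT pools. Its KO mean was 0.364 times the WT mean. Lyz2, the lysozyme gene of myeloid cells, averaged 18.6 ± 1.06 CPM in KO and 5034 ± 1449 CPM in WT (SD, n = 3 each). WT replicate 1 lay closer to the KO pools than to the other WT pools. The mean absolute difference in log2 CPM over all tested genes was 0.314 to 0.374 between the KO pools and WT replicate 1, against 0.480 and 0.434 between WT replicate 1 and WT replicates 2 and 3. WT replicates 2 and 3 were as far from each other (0.435). The KO pools were 0.318 to 0.344 from each other and 0.485 to 0.536 from WT replicates 2 and 3. WT replicate 1 thus lay about as near to the KO pools as these lay to each other. Values with and without that library are given because leaving it out moved the calls. Itgam, which encodes Cd11b, averaged 148 ± 28.1 CPM in KO and 104 ± 31.6 CPM in WT, and Csf1r, the receptor that sustains macrophages, 3051 ± 141 CPM in KO and 2297 ± 686 CPM in WT. All 8 endothelial, 8 mural and 9 fibroblast markers passed the filter on low counts too.

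No member passed the test across all genes with all 6 libraries, and 3 of 7 passed without WT replicate 1. Cxcl12, the stromal chemokine that retains leukocytes and progenitors, was lower in every KO pool. Cxcl13, the B cell chemokine, was higher in every KO pool, with a mean 2.51 times that of WT. Cxcl1 was lower in every KO pool too, while its neighbour Cxcl2 differed by less than the spread between pools. In each class, members thus lay on both sides of 0. The test was edgeR's quasi-likelihood F test over 15707 genes with Benjamini-Hochberg adjustment, in which 0.0127% of genes were called (2 genes, Egfr and Lyz2). At an unadjusted p under 0.05 there were 4 members, Cxcl1, Cxcl12, Cxcl13 and Cxcl14, where 15.3% of all genes had such a p. The 2 groups were fully separated for 3 of 7 members, as for 19.7% of all genes: Cxcl13 had every KO pool above every WT pool (9.59% of genes), and Cxcl1 and Cxcl12 the reverse (10.1%). DESeq2 called 2 members among 5.51% of genes, Cxcl13 higher (1.13% of genes) and Cxcl12 lower (4.39%). With no filter on low counts edgeR called the same members among 2.70% of genes (0.479% higher, 2.22% lower), and limma-voom called 0 members. Without WT replicate 1, edgeR called 8.30% of genes, with Cxcl13 and Cxcl16 among the higher (2.33%) and Cxcl12 among the lower (5.97%).

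**Figure D1:**
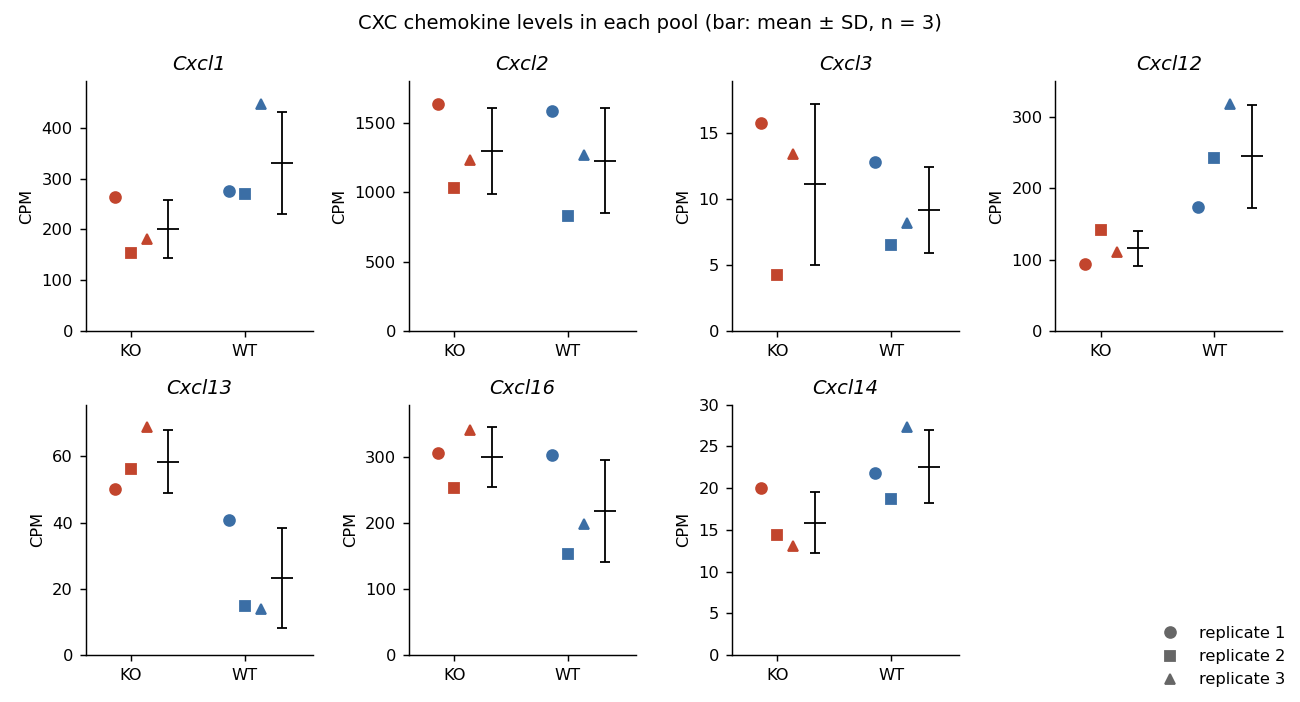
CPM of each CXC chemokine in the 3 KO pools (red, left) and 3 WT pools (blue, right), with circles, squares and triangles for replicates 1, 2 and 3 and the bar for mean ± SD. Cxcl1 and Cxcl12 lie lower and Cxcl13 higher in all KO pools, and WT replicate 1 is the WT pool nearest to KO for Cxcl12, Cxcl13 and Cxcl16.

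Of the neutrophil-attracting members, Cxcl1 (ENSMUSG00000029380, chromosome 5, 90891241 to 90893115, plus strand, GRCm38) encodes the keratinocyte-derived chemokine KC. It was at 265, 154 and 182 CPM in the KO pools, against 277, 269 and 447 CPM in the WT pools. The KO pools all lay below the WT pools, but KO replicate 1 came within 5 CPM of WT replicate 2, and WT replicate 3 stood well above the rest. The mean was 200.4 ± 57.3 CPM in KO and 331 ± 100.6 CPM in WT (SD, n = 3 each). On the log2 scale that is -0.72 ± 0.26 (SE; adjusted p = 0.263 in edgeR). It stayed negative on leaving out any library, from -0.97 without KO replicate 1 to -0.44 without WT replicate 3. Relative to the summed fibroblast, endothelial and mural markers (25 genes), Cxcl1 was at 6.11%, 3.88% and 4.33% in KO pools, against 5.16%, 3.24% and 3.71% in WT pools. On that ratio the groups overlapped, with the KO mean 1.18 times the WT mean.

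Cxcl2 (ENSMUSG00000058427, chromosome 5, 90903871 to 90905938, plus strand) encodes macrophage inflammatory protein 2 and was the most abundant member. It was at 1637, 1031 and 1229 CPM in the KO pools, against 1582, 830 and 1266 CPM in the WT pools. The groups overlapped throughout, with replicate 1 highest and replicate 2 lowest in each. The log2 fold change was 0.08 ± 0.28 (SE; adjusted p = 0.917 in edgeR), and its sign turned to -0.11 without KO replicate 1 and to -0.14 without WT replicate 2.

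Cxcl3 (ENSMUSG00000029379, chromosome 5, 90786103 to 90789600, plus strand), the third ligand of Cxcr2 in this cluster, was scarce. It was at 15.8, 4.24 and 13.4 CPM in the KO pools, against 12.8, 6.52 and 8.19 CPM in the WT pools. KO replicate 2 was the lowest of all pools and KO replicate 1 the highest, so that the spread within KO exceeded the difference between groups. The log2 fold change was 0.28 ± 0.46 (SE; adjusted p = 0.818 in edgeR), with 0.67 without KO replicate 2 and -0.0536 without KO replicate 1.

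The distance between the neighbours Cxcl1 and Cxcl2 was wider in every KO pool than in any WT pool. The log2 CPM of Cxcl2 minus that of Cxcl1 was 2.63, 2.74 and 2.75 in the KO pools, against 2.52, 1.62 and 1.5 in the WT pools. Replicate 1 of KO and of WT nearly met. Among single genes 19.7% were without overlap, and no such share was taken over gene pairs. The KO mean exceeded the WT mean by 0.83 with all pools and by 1.14 without WT replicate 1, a difference that was not tested. Summed neutrophil markers (11 genes, Cxcr2 among them) were at 3053, 838 and 872 CPM in KO and 2491, 1239 and 663 CPM in WT. They were thus highest in replicate 1 of each group, as Cxcl2 was, and their part in these values was not tested. None of the 11 neutrophil markers passed in edgeR over all genes, and 7 had positive and 4 negative log2 fold changes (median 0.16). The list was not uniform. Its secondary granule genes had KO means far below WT: Ltf, lactoferrin, was at 21.01, 14.3 and 25.7 CPM in KO and 160, 91.6 and 18.6 CPM in WT (log2 fold change -2.15, edgeR adjusted p = 0.227). Camp had a log2 fold change of -2.35 and Ngp of -1.97, and edgeR with no filter on low counts called these 3 lower (2.22% of all genes). Neither DESeq2 nor edgeR without WT replicate 1 called any of them. In all 3 genes the groups overlapped through WT replicate 3. S100a8, an abundant gene of the list, was at 579, 126 and 114 CPM in KO and 417, 219 and 94.8 CPM in WT.

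Of the lymphocyte-attracting members, Cxcl12 (ENSMUSG00000061353, chromosome 6, 117168535 to 117181367, plus strand) encodes stromal cell-derived factor 1, made in the heart mainly by endothelial cells, pericytes and fibroblasts. It was at 94.3, 142 and 111 CPM in the KO pools, against 174, 242 and 318 CPM in the WT pools. The groups did not overlap, and WT replicate 1 was the WT pool closest to KO. The mean was 116 ± 24.3 CPM in KO and 245 ± 72.2 CPM in WT (SD, n = 3 each), a ratio of 0.473. The log2 fold change was -1.08 ± 0.24 (SE; adjusted p = 0.18 in edgeR). Without WT replicate 1 it was -1.27 (edgeR adjusted p = 0.0172), and over all settings the adjusted p ran from 0.00152 with DESeq2 to 0.561 without KO replicate 2.

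Markers of the cells that make Cxcl12 had lower means in KO as well. Summed endothelial markers were at 949, 999 and 1220 CPM in KO, against 1729, 2076 and 2890 CPM in WT, a ratio of 0.473 between the means. The ratio was 0.561 for mural markers, again without overlap. It was 0.458 for fibroblast markers, which summed to 2298, 2002 and 1567 CPM in KO and 2070, 4216 and 6521 CPM in WT, with WT replicate 1 among the KO pools. Of these 25 markers all had negative log2 fold changes. None passed in edgeR with all 6 libraries. Without WT replicate 1 edgeR called 7 of 8 endothelial, 7 of 8 mural and 9 of 9 fibroblast markers lower (5.97% of all genes). DESeq2 with all libraries called 8, 7 and 7 lower (4.39% of genes). In bulk RNA, fewer cells of a type and less RNA per cell cannot be told apart. Set against the summed endothelial markers, Cxcl12 stood at 9.93%, 14.2% and 9.12% in KO pools, against 10.1%, 11.7% and 11% in WT pools. The KO mean of that ratio was 1.02 times the WT mean, with the groups overlapping, and against all 25 markers it was 0.953 times.

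**Figure D2:**
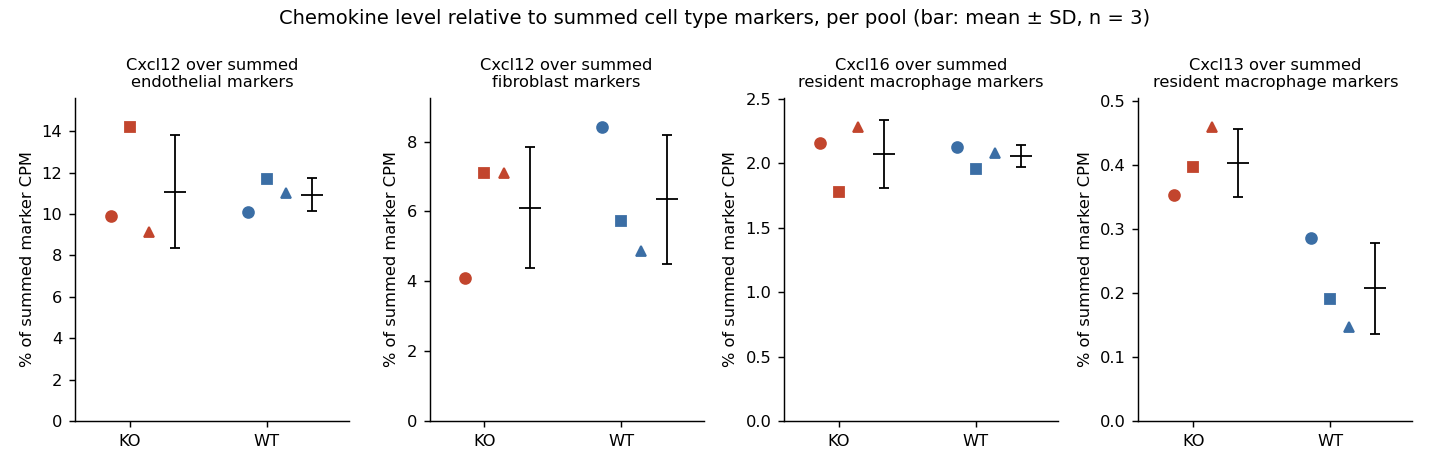
Chemokine CPM as a percentage of the summed CPM of a marker list in each KO pool (red, left) and WT pool (blue, right), with circles, squares and triangles for replicates 1, 2 and 3 and the bar for mean ± SD. Cxcl12 over endothelial or fibroblast markers and Cxcl16 over macrophage markers overlap between groups, while Cxcl13 over macrophage markers is higher in all KO pools.

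Cxcl13 (ENSMUSG00000023078, chromosome 5, 95956951 to 95961068, plus strand) attracts B cells and follicular helper T cells, and is made by follicular stroma and by some tissue and body-cavity macrophages. It was at 50.1, 56.2 and 68.7 CPM in the KO pools, against 40.8, 14.9 and 14.0 CPM in the WT pools. Every KO pool was above every WT pool, and WT replicate 1 lay between the KO pools and the other WT pools. The mean was 58.3 ± 9.49 CPM in KO and 23.2 ± 15.2 CPM in WT (SD, n = 3 each). On the log2 scale that is 1.32 ± 0.40 (SE; adjusted p = 0.227 in edgeR). It was 2.02 without WT replicate 1 (edgeR adjusted p = 0.0119) and 1.06 to 1.43 on leaving out any other library, where it did not pass. DESeq2 gave an adjusted p of 0.0131.

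Summed markers of macrophages and B cells, which make or answer Cxcl13, had higher means in KO too. The T cell sum had a lower mean in KO (ratio 0.759), with overlap. Those of resident macrophages (12 genes) had a KO to WT ratio of 1.37, those of B cells (6 genes) 1.542 and those of serous cavity macrophages (8 genes) 1.553, against 2.51 for Cxcl13. The B cell sums did not overlap between groups, though KO replicate 1 (412 CPM) and WT replicate 1 (390 CPM) nearly met. The serous cavity macrophage sums overlapped. Those of resident macrophages overlapped through WT replicate 1, at 14180, 14160 and 14970 CPM in KO and 14280, 7804 and 9563 CPM in WT. Without WT replicate 1 edgeR called 8 of the 12 resident macrophage markers higher (2.33% of all genes) and 0 of the 6 B cell markers. DESeq2 with all libraries called 0 and 2 of them higher (1.13% of genes). Log2 fold changes were positive for all 12 resident macrophage markers, all 6 B cell markers and 6 of the 8 serous cavity markers. Relative to the macrophage markers, Cxcl13 was at 0.353%, 0.397% and 0.459% in the KO pools, against 0.286%, 0.190% and 0.147% in the WT pools. The groups did not overlap, and the KO mean of the ratio was 1.94 times the WT mean. Relative to the serous cavity markers (2.06 times) and the B cell markers (1.80 times) the groups overlapped. The serous cavity sum was highest in KO replicate 2 at 3975 CPM, against 2322 and 1494 CPM in the other KO pools and 1380 to 2005 CPM in WT, whereas Cxcl13 was highest in KO replicate 3. Within that list the KO mean was 5.865 times the WT mean for Alox15, a lipoxygenase, 3.47 times for Prg4, the joint lubricant lubricin, and 2.85 times for F5, coagulation factor V, all above the ratio of Cxcl13. Every KO pool was above every WT pool for Alox15 and Prg4. Gata6, the transcription factor that defines these macrophages, had a ratio of 0.589, and none of these genes passed in edgeR with all 6 libraries. Other settings called them in opposite directions. DESeq2 called Alox15 higher (1.13% of all genes), and edgeR with no filter Alox15, Prg4 and F5 (0.479%). Without WT replicate 1 edgeR called Gata6 lower (5.97% of genes) and 0 of the list higher. Of the follicular stroma markers, Ccl21a had 0 reads in all pools and Ccl19 and Madcam1 were too scarce to be tested. Cr2, a complement receptor that B cells also carry, was at 25.0 ± 7.18 CPM in KO and 11.7 ± 5.08 CPM in WT. The part of any of these cell types in the Cxcl13 values was not tested.

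Cxcl16 (ENSMUSG00000018920, chromosome 11, 70453983 to 70459984, minus strand) encodes the scavenger receptor and chemokine of macrophages and dendritic cells. It was at 306, 253 and 342 CPM in the KO pools, against 304, 153 and 199 CPM in the WT pools. WT replicate 1 lay among the KO pools, and the other WT pools lay below all of them. The log2 fold change was 0.46 ± 0.25 (SE; adjusted p = 0.428 in edgeR), and 0.78 without WT replicate 1 (edgeR adjusted p = 0.0437). Relative to the summed resident macrophage markers Cxcl16 was at 2.16%, 1.78% and 2.28% in KO pools, against 2.13%, 1.96% and 2.08% in WT pools, a ratio of 1.01 between the means. Cxcl16 shares 552 exonic bases with Zmynd15 on the opposite strand, and the sources used here do not state the strand setting of the counting. Summed T cell markers (6 genes), whose cells answer Cxcl16, were at 109, 51.1 and 176 CPM in KO and 27.3, 386 and 29.5 CPM in WT, in an order that was not that of Cxcl16.

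Cxcl14 (ENSMUSG00000021508, chromosome 13, 56288643 to 56296551, minus strand) was at 19.98, 14.4 and 13.1 CPM in the KO pools, against 21.8, 18.7 and 27.3 CPM in the WT pools. KO replicates 2 and 3 lay below all WT pools, and KO replicate 1 lay among them. The log2 fold change was -0.51 ± 0.21 (SE; adjusted p = 0.304 in edgeR) and kept its sign in all 6 fits without 1 library, from -0.71 to -0.35. Relative to the fibroblast markers, the KO mean of Cxcl14 was 1.27 times the WT mean, with overlap. That share was 0.869%, 0.720% and 0.835% in KO pools, against 1.05%, 0.444% and 0.418% in WT pools.

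**Figure D3:**
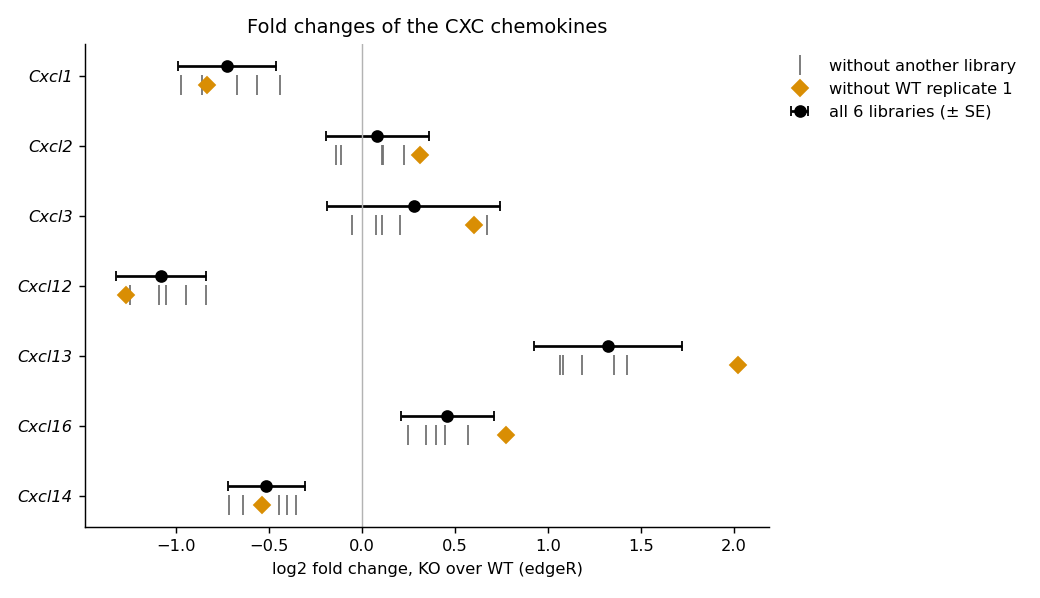
Log2 fold changes, KO over WT, of each CXC chemokine in edgeR with all 6 libraries (black, ± SE), without WT replicate 1 (orange diamonds) and without each other library (grey ticks). Cxcl1, Cxcl12 and Cxcl14 stay negative and Cxcl13 and Cxcl16 positive throughout, while Cxcl2 and Cxcl3 cross 0.

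Taking the classes as wholes, the neutrophil-attracting class had 2 members with positive and 1 with negative log2 fold changes (median 0.08). The lymphocyte-attracting class likewise had 2 positive and 1 negative (median 0.46), and the median over all tested genes was 0.0072. Per pool, the mean log2 CPM of the neutrophil-attracting members was 7.57, 6.46 and 7.18 in KO, against 7.48, 6.83 and 7.39 in WT. That of the lymphocyte-attracting members was 6.82, 6.98 and 7.11 in KO, against 7.01, 6.36 and 6.59 in WT. The distance between the classes was 0.10 ± 0.63 in KO and 0.58 ± 0.19 in WT (SD, n = 3 each), a difference of -0.48 on the log2 scale with the groups overlapping. It rested on which genes were counted as lymphocyte-attracting: it was -1.16 without Cxcl12 and 0.11 without Cxcl13. No test was made of this summary, because the members were chosen with earlier results known.

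Members of the lymphocyte-attracting class lay far apart. The log2 CPM of Cxcl13 minus that of Cxcl12 was -0.91, -1.34 and -0.69 in KO pools, against -2.09, -4.02 and -4.50 in WT pools. The KO mean was higher by 2.55, or by 3.28 without WT replicate 1, and the groups did not overlap. Cxcl16 minus Cxcl12 was 1.70, 0.83 and 1.62 in KO pools, against 0.80, -0.66 and -0.68 in WT pools. Here KO replicate 2 and WT replicate 1 nearly met. Some pairs across the classes were apart as well. Cxcl1 minus Cxcl13 (KO mean minus WT mean -2.22), Cxcl1 minus Cxcl16 (-1.23) and Cxcl2 minus Cxcl13 (-1.39) were lower in every KO pool than in any WT pool. For Cxcl1 minus Cxcl16, KO replicate 1 (-0.21) and WT replicate 1 (-0.13) nearly met. The other pairs across the classes overlapped between groups. None of these differences was tested. Among single genes 19.7% did not overlap between groups, and no such share was taken over gene pairs.

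**Figure D4:**
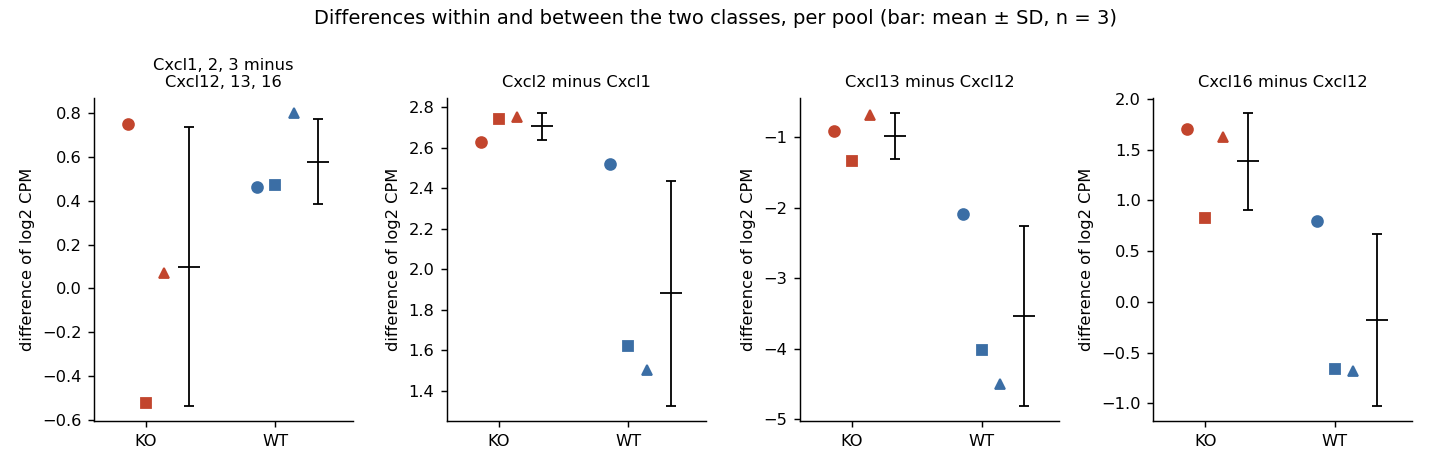
Differences of log2 CPM in each KO pool (red, left) and WT pool (blue, right), with circles, squares and triangles for replicates 1, 2 and 3 and the bar for mean ± SD; the leftmost panel sets the mean of Cxcl1, Cxcl2 and Cxcl3 against that of Cxcl12, Cxcl13 and Cxcl16. The difference of the class means overlaps between groups, whereas Cxcl2 minus Cxcl1, Cxcl13 minus Cxcl12 and Cxcl16 minus Cxcl12 do not. Pairs across the classes are not drawn.

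Levels of different genes were compared per kilobase of exon. In KO pools the order was Cxcl2 (628 ± 150 CPM per kb), Cxcl1 (107 ± 30.6), Cxcl16 (99.3 ± 14.8), Cxcl13 (50.7 ± 8.25), Cxcl12 (14.2 ± 2.97), Cxcl14 (8.66 ± 2.00) and Cxcl3 (3.19 ± 1.74; SD, n = 3). By this length the KO pools of Cxcl1 and Cxcl16 overlapped. In WT pools the means were 593 ± 183 for Cxcl2, 177 ± 53.6 for Cxcl1, 72.3 ± 25.6 for Cxcl16, 29.9 ± 8.83 for Cxcl12, 20.2 ± 13.2 for Cxcl13, 12.4 ± 2.38 for Cxcl14 and 2.62 ± 0.932 CPM per kb for Cxcl3. Cxcl13 and Cxcl12 therefore changed places between the groups, although their WT pools overlapped. Exon length here is the union over transcripts, which unspliced forms lengthen. Per kilobase of the longest coding transcript, a choice made after seeing the data, Cxcl3 came to 11 in KO and 9.03 in WT, and so its mean was above that of Cxcl14 in KO (8.66). By that length Cxcl1 (162 to 278 CPM per kb) lay above Cxcl16 (93.6 to 127) in all KO pools, so whether these neighbours in the order overlap depends on the length used.

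The patterns over the 6 pools set some members far apart and others near each other. Likeness was the root mean square difference of log2 CPM, each gene centred on its own mean, over 10724 named genes at a mean of 5 CPM or more. Nearest to Cxcl12 were Pcdh12 (0.0864), Igsf10 (0.0898) and Akr1c14 (0.0916). For scale, the members themselves spanned 0.98 (Cxcl2) to 2.29 (Cxcl13) on the log2 scale. Nearest to Cxcl16 were Apoe (0.0578), Ctsb (0.0591) and Ftl1 (0.0687), and to Cxcl2 Mt1 (0.0617), Nlrp3 (0.100) and Neat1 (0.102). Cxcl14 had Ccl11 (0.103), Pcgf2 (0.106) and Il6 (0.115), and Cxcl1 had Edn1 (0.133), Eln (0.135) and Ahsg (0.136). Cxcl13 stood closest to Il4i1 (0.151), then at some distance to Fcna (0.316) and C6 (0.322), and Cxcl3 to Il1rn (0.262), Ndel1 (0.288) and Sh2b2 (0.289). Between members the smallest difference was that of Cxcl1 and Cxcl14 (0.187) and the largest that of Cxcl12 and Cxcl13 (1.49). In order of nearness, Cxcl14 was gene 29 for Cxcl1, and Cxcl1 was gene 40 for Cxcl14. Cxcl16 was gene 105 for Cxcl13, but Cxcl13 was gene 8555 for Cxcl16. Likewise Cxcl2 was gene 136 for Cxcl3, but Cxcl3 was gene 7798 for Cxcl2. Cxcl12 was gene 10349 for Cxcl13. All genes share these 6 libraries, and the values are a description.

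Of 8 receptors, all tested, 7 had positive log2 fold changes (median 0.32) and none passed in edgeR with all 6 libraries. At an unadjusted p under 0.05 there were 1 higher and 1 lower, where 15.3% of all genes had such a p. Both were also called by DESeq2 (5.51% of genes called), by edgeR with no filter (2.70%), and by edgeR without WT replicate 1 (8.30%). The higher receptor was Cxcr5, the receptor of Cxcl13 on B cells. It was at 43.1, 58.2 and 58.4 CPM in the KO pools, against 39.8, 31.9 and 31.5 CPM in the WT pools, without overlap. Its log2 fold change was 0.63 ± 0.16 (SE; adjusted p = 0.192 in edgeR; DESeq2 adjusted p = 0.03). Summed B cell markers were also higher in every KO pool, at 412, 698 and 442 CPM in KO and 390, 335 and 281 CPM in WT, and their part was not tested. The lower receptor was Ackr3, which takes up and clears Cxcl12. It was at 73.7, 55.3 and 65.2 CPM in the KO pools, against 74.5, 109 and 176 CPM in the WT pools. KO replicate 1 and WT replicate 1 lay within 1 CPM of each other. The log2 fold change was -0.89 ± 0.29 (SE; adjusted p = 0.235 in edgeR), and -1.14 without WT replicate 1 (edgeR adjusted p = 0.0251). Without WT replicate 3, the highest pool, it was -0.50 (edgeR adjusted p = 0.575).

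Cxcr4, the signalling receptor of Cxcl12, was at 324, 181 and 209 CPM in KO pools and 251, 199 and 163 CPM in WT pools (log2 fold change 0.22, SE 0.25). Cxcr2, the receptor of Cxcl1, Cxcl2 and Cxcl3, was at 157, 35.7 and 29.6 CPM in KO pools and 85.3, 50.9 and 27.4 CPM in WT pools (0.44, SE 0.66). It was highest in replicate 1 of each group, and its log2 fold change turned to -0.74 without KO replicate 1. Cxcr6, the receptor of Cxcl16, was barely expressed, at 0.917, 0.668 and 0.854 CPM in KO and 0.154, 0.573 and 1.58 CPM in WT. Cxcr1, Cxcr3 and Ackr1, a scavenger of venules and red cells, averaged 1.41, 3.48 and 1.89 CPM in KO and 0.809, 2.57 and 1.66 CPM in WT.

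Among 8 other CXC ligands, 6 were tested, 1 with a positive and 5 with negative log2 fold changes (median -0.42), and none passed in edgeR with all 6 libraries. Pf4, the platelet factor that resident macrophages also express, was the abundant one. It was at 346, 435 and 450 CPM in the KO pools, against 377, 199 and 248 CPM in the WT pools. WT replicate 1 again lay among the KO pools, and the log2 fold change was 0.58 ± 0.24 (SE; adjusted p = 0.308 in edgeR), or 0.88 without that pool (edgeR adjusted p = 0.027). Without WT replicate 2, the lowest pool, it was 0.39 (edgeR adjusted p = 0.536). Ppbp, an ELR chemokine of platelets, was at 6.71 ± 1.05 CPM in KO and 9.21 ± 4.34 CPM in WT (log2 fold change -0.46, and -0.021 without WT replicate 1). Summed platelet markers were only at 6.99, 10.9 and 5.16 CPM in KO and 19.1, 16 and 9.68 CPM in WT, with Gp1bb at 0 reads. The interferon-induced ligands of Cxcr3 had negative values: Cxcl10 was at 83.3 ± 25.9 CPM in KO and 130 ± 51.2 CPM in WT (log2 fold change -0.64, SE 0.31, edgeR adjusted p = 0.375). Cxcl9 was at 38.1 ± 4.54 CPM in KO and 49.4 ± 16.1 CPM in WT (-0.38, SE 0.22). Cxcl11, annotated as a polymorphic pseudogene, was below 1 CPM in every pool (-0.70, SE 0.56). These values rested largely on WT replicate 3: without it they were -0.27 for Cxcl10, -0.079 for Cxcl9 and -0.095 for Cxcl11. Cxcl5, the remaining tested ELR ligand, averaged 1.36 CPM in KO and 1.67 CPM in WT. Cxcl15 had 21, 9 and 1 reads in the KO pools and 0 reads in each WT pool, which allows up to 0.111, 0.169 and 0.1405 CPM there (3 counts of each library, counting error only). Cxcl17 had 0 to 6 reads. Neither passed the filter on low counts; with no filter the edgeR adjusted p was 0.0536 for Cxcl15 and 0.98 for Cxcl17.

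**Figure D5:**
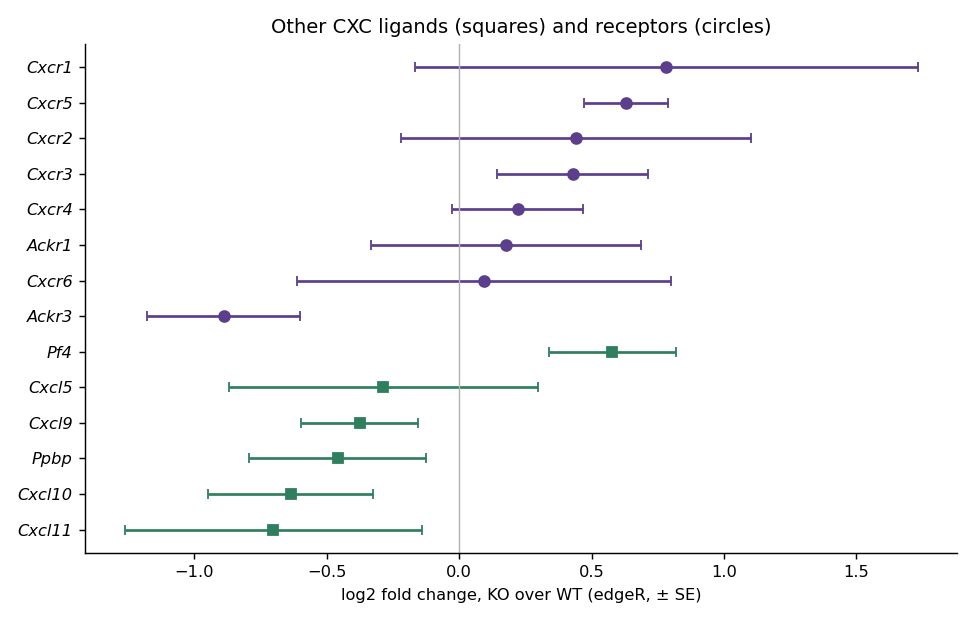
Log2 fold changes, KO over WT (edgeR with all 6 libraries, ± SE), of the CXC receptors (circles) and the other CXC ligands (squares) that were tested. Of the receptors only Ackr3 is negative, and of the ligands only Pf4 is positive; none passed the adjusted threshold.

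Genes that answer the signals inducing these chemokines lay on both sides of 0. Of 18 NF-kB targets 13 had positive log2 fold changes (median 0.07), of 12 genes induced by tissue dissociation 8 (median 0.13), and of 6 interferon-gamma targets 4 (median 0.02). None of these genes passed in edgeR with all 6 libraries. At an unadjusted p under 0.05, which 15.3% of all genes had, there was 1, Ciita, the class II transactivator. It was at 162 ± 33.8 CPM in KO and 94.5 ± 21.1 CPM in WT. Without WT replicate 1 edgeR called 0 NF-kB targets, 0 dissociation genes and Ciita (8.30% of all genes called). Ciita was also the only gene of these lists called by DESeq2 (5.51% of genes) and by edgeR with no filter (2.70%). The NF-kB targets summed to 9878, 6310 and 7158 CPM in KO and 8657, 5461 and 7016 CPM in WT, highest in replicate 1 and lowest in replicate 2 of each group, as for Cxcl2. Of 6 genes listed as shedding and glycosaminoglycan partners of chemokines, Dpp4 among them, 3 were positive (median 0.01). Sdc1, a heparan sulfate proteoglycan, was lower in every KO pool at 23.2 ± 2.90 CPM, against 30.8 ± 0.879 CPM in WT (edgeR adjusted p = 0.232). Adam10 and Adam17, the proteases that shed Cxcl16, were at 178 ± 10.1 and 193 ± 4.96 CPM in KO and 170 ± 4.48 and 159 ± 26.0 CPM in WT. Adam17 was higher in every KO pool, though KO replicate 3 (188.8 CPM) and WT replicate 1 (188.4 CPM) nearly met. Over all genes, 10.1% were lower in every KO pool and 9.59% higher.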

How the data were processed

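RNA was measured in 6 libraries, each a pool of hearts. The authors deposited raw counts of reads per Ensembl gene. Per the submitters' processing notes the tools were STAR, HTSeq and DESeq2 and the build was GRCm38; neither annotation release nor strand setting is stated in what was used here. Libraries were made with a directional kit, per the labels. The 5 counters that name no gene (5.90% to 8.62% of reads in no feature, 1.49% to 1.72% ambiguous, 7.58% to 8.67% not uniquely aligned) were left out. Of 55487 identifiers, 55141 had a symbol. Coordinates and lengths are from GENCODE M21 (GRCm38).

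Genes kept by filterByExpr (minimum count 10; all 7 members passed) were scaled by TMM and tested with edgeR 4.0.16 in R 4.3.3 (glmQLFit, glmQLFTest, KO against WT, two-sided, adjusted threshold 0.05). The SE is the change over the square root of F. CPM are TMM-scaled, and log2 CPM used a prior count of 2. Settings tried were DESeq2 1.42.0, limma-voom (limma 3.58.1), other scalings, no filter or a mean CPM of 5, a replicate block and each library left out. The procedure was tested on simulated data. Members, marker and pathway lists, and the rule for named genes were chosen with earlier results of these data known. Within a list, genes with the smallest p at a mean CPM of at least 1 could be named, with nearest genes by likeness. Itgam, Csf1r, S100a8, Zmynd15, Gp1bb and the follicular genes were named to describe the preparation. Sequences were aligned with Biopython 1.88 and figures drawn with matplotlib 3.10.9.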

Additional observations from a re-analysis of the deposited data

How the results depend on the processing

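The count of genes called over all genes was 2 in edgeR, 831 with DESeq2, 782 without the filter on low counts, 1 with limma-voom and 1 to 1338 with a library left out; the number of CXC chemokines called was 0 in edgeR, 2 with DESeq2, 2 without the filter and 0 to 3 with a library left out. The cause was not tested. Cxcl12 had -1.075 with DESeq2 and -1.076 without the filter, both past the threshold, and -1.27 to -0.84 with a library left out. Cxcl13 had 1.33 with DESeq2 and 1.32 without the filter, also past it, and 1.06 to 2.02 with a library left out. On leaving out libraries Cxcl16 ran from 0.25 to 0.78, Cxcl2 from -0.14 to 0.31 and Cxcl3 from -0.0536 to 0.67. Among other genes whose sign turned on leaving out libraries, Cxcl5 ran from -0.92 to 0.12, Cxcr1 from -0.98 to 1.35, Cxcr2 from -0.74 to 0.93, Cxcr4 from -0.0621 to 0.40, Cxcr6 from -0.41 to 1.20 and Ackr1 from -0.21 to 0.54. Ackr3 ran from -1.14 to -0.50, Cxcr5 from 0.55 to 0.77 and Pf4 from 0.39 to 0.88, each past the threshold only without WT replicate 1 among these fits. The class difference of -0.48 was -1.16 without Cxcl12, 0.11 without Cxcl13, and -0.80 to -0.17 with a library left out. Scaling by DESeq2 size factors or upper quartile changed no member's sign or call.

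Replicate numbers were not taken to pair the pools: same-numbered KO and WT pools had deviations from their group means correlated at 0.0968, -0.16 and 0.006, and only KO replicate 1 correlated best with its own number. With the replicate block edgeR called 3 genes and 0 members, and the class difference was -0.48. With 3 pools a group, an exact permutation test could not go below p = 0.1, so differences of single values were left untested. Cxcl15, Cxcl17, Cxcl11 and receptors at a few CPM rest on few reads.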
